A study of Homo sapiens with 16 samples.

Results

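The hyaluronan genes described here are 8 genes of hyaluronan synthesis (HAS2, HAS3), breakdown (CEMIP, CEMIP2, HYAL2, HYAL3) and binding at the cell (CD44, HMMR). They were found by symbol among 67938 gene identifiers, and all 8 had a row in the count table of each cell line. They were chosen on the low HepG2 levels of HAS3 and CEMIP with siPANAD, so the HepG2 values with siPANAD are given as a description with no test. Tests of these 8 genes use SNU-449 and the control libraries of both lines. The HepG2 control libraries were also part of the comparison behind the choice, so tests that use them are not independent of it. A further 59 genes of the pathway were also tested with siPANAD in HepG2. That choice was not made on them, but their lists were drawn up with earlier results of these data known. Their tests are therefore not independent support.

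RNA-seq counts came from 16 libraries of SNU-449 and HepG2, established human liver cancer lines. Cells were transfected with siPANAD-1 and siPANAD-2 together (siPANAD), small interfering RNAs against PANAD, the product of C7orf25, or with a negative control (NC), for 48 h. The 8 groups, with 2 biological replicates each, were SNU-449 cytoplasm siPANAD and NC, SNU-449 nucleus siPANAD and NC, HepG2 cytoplasm siPANAD and NC, and HepG2 nucleus siPANAD and NC. The series title names the mRNA export receptor NXF1 and the export of CDK6 mRNA. Because the siRNAs were pooled, they cannot be compared with each other.

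Hyaluronan is a long unsulfated sugar polymer of the pericellular matrix. Synthases in the plasma membrane build it from UDP-glucuronic acid and UDP-N-acetylglucosamine and push it out of the cell, and hyaluronidases and hyaluronan-binding proteins at the surface and in lysosomes cut it. In liver it is taken up mainly by sinusoidal endothelial cells, and the surface receptor CD44 marks mesenchymal and progenitor-like states of liver cancer cells.

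Libraries held 16238235 to 30321908 counts, and only the HepG2 cytoplasm NC replicate 2 library exceeded 19498081. C7orf25 itself had 0 to 7 counts in each library, so the knockdown could not be checked from these counts. Nuclear libraries held the nuclear RNA MALAT1 at 273 to 458 CPM, against 2.86 to 7.27 CPM in cytoplasmic ones. All levels are TMM-normalised CPM (counts scaled to library size), on one scale for the 16 libraries, with mean ± SD of 2 libraries. SNU-449, labelled as hepatocellular carcinoma cells, had 0 counts of ALB, TTR and APOB in each cytoplasmic library, while VIM was at 998 to 2263 CPM. HepG2 held ALB at 5642 to 11838 CPM and VIM at 0 to 4 counts. Other markers of these kinds did not all follow. In NC cytoplasm the mesenchymal markers FN1 (log2 difference -8.30, SE 0.18) and CDH2 (-0.52, SE 0.13) were lower in SNU-449 than in HepG2. ZEB1 was similar (0.15, SE 0.16) and SPARC higher (0.64, SE 0.12). Of the hepatocyte markers, APOA1, AFP, SERPINA1 and TF were far lower in SNU-449, but FGB only slightly (-0.36, SE 0.13). PTPRC, CD68 and KDR, markers of blood cells, macrophages and endothelium, had 0 to 3 counts in every library. Other markers on the same lists were not absent, since PECAM1 had 14 to 192 counts, CD14 had 194 and 192 counts in the cytoplasmic NC libraries of SNU-449 and LYZ reached 461 and 629 CPM in those of HepG2.

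The lines differed in which hyaluronan genes they expressed under NC. Per kilobase of merged exon, HAS3 stood highest in the SNU-449 cytoplasm at 147 ± 18.1 CPM per kb. HYAL2 followed at 43.3 ± 2.62 and CD44 at 42.6 ± 1.28 CPM per kb, a gap smaller than the SD of either. HYAL3 came next at 18.8 ± 1.85, then HMMR at 3.61 ± 1.30 and CEMIP2 at 2.65 ± 0.0545 CPM per kb, the last 2 not separated beyond the SD of HMMR. HAS2 was at 0.585 ± 0.195 CPM per kb and CEMIP, with 4 counts in each library, was lowest. Thus SNU-449 carried mainly 1 synthase, 1 surface receptor and HYAL2.

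In HepG2 cytoplasm under NC the order was another. HYAL2 stood highest at 74.0 ± 0.622 CPM per kb, followed by CEMIP at 23.1 ± 0.143 and CEMIP2 at 18.8 ± 0.101 CPM per kb. HYAL3 at 8.33 ± 1.99 and HMMR at 8.19 ± 0.555 CPM per kb were not separated beyond their SD, and HAS3 was at 3.13 ± 0.149 CPM per kb. CD44 had 3 counts in each library and HAS2 had 0. HepG2 thus held mainly transcripts of breakdown genes. The nuclear fraction gave HAS3 at 101 ± 4.31 and CD44 at 45.6 ± 1.22 CPM per kb as the highest in SNU-449, and HYAL2 at 35.4 ± 5.72 and CEMIP at 29.6 ± 1.60 CPM per kb as the highest in HepG2.

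**Figure D1:**
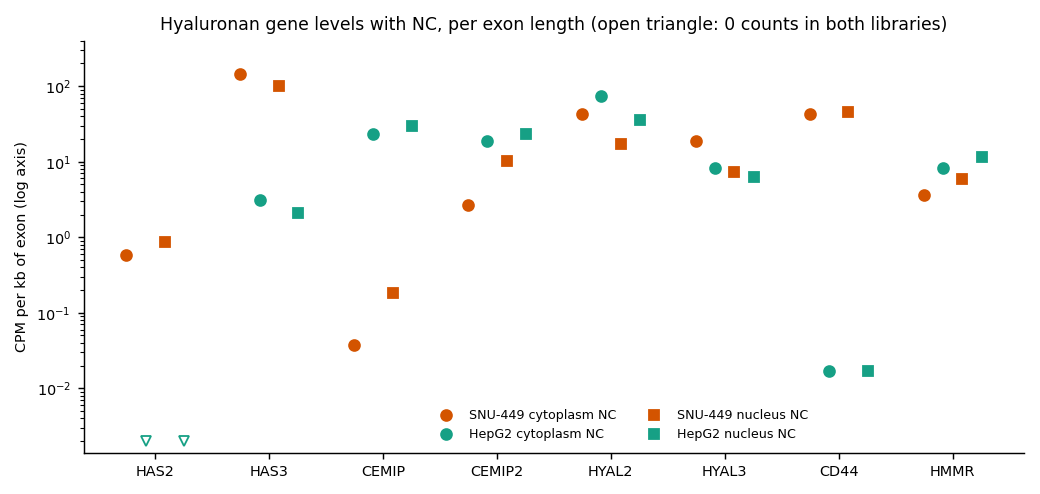
Mean level of each gene under NC (CPM per kb of merged exon, log axis) in SNU-449 and HepG2, circles for cytoplasm and squares for nucleus, n = 2 libraries per mean. HAS3 at 147 CPM per kb in SNU-449 cytoplasm lies above its 3.13 CPM per kb in HepG2 cytoplasm, CEMIP lies the other way round, and HAS2 had 0 counts in HepG2 under NC.

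Of the 5 hyaluronan genes at 0.567 CPM or more in both groups, the low-count cutoff, 2 were higher and 3 lower in SNU-449 than in HepG2 in NC cytoplasm, where 71.2% of the 20459 genes tested differed, 34.3% higher and 36.9% lower (edgeR's quasi-likelihood test, adjusted p under 0.05 by Benjamini-Hochberg over all genes tested). HAS2, CEMIP and CD44 were under the cutoff in 1 line and are given below by their counts. The nucleus gave 1 higher and 4 lower of 6 such genes, where 75.5% of all genes differed, 39.1% higher and 36.5% lower. HAS3, the synthase that tends to make shorter chains, was higher in SNU-449 by 5.56 on the log2 scale in the cytoplasm (SE 0.15, adjusted p = 9.23e-35) and by 5.59 in the nucleus (SE 0.15). CD44, the main surface receptor, had 11811 counts in both SNU-449 cytoplasm NC libraries together against 6 in the HepG2 pair, a ratio of 2698 after scaling (exact 95% interval 1239 to 7354, counting error only).

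CEMIP, a secreted and surface-associated protein needed for hyaluronan depolymerisation, went the other way, with 8 counts in the SNU-449 cytoplasm NC pair against 6682 in the HepG2 pair. The ratio after scaling was 0.00164 (exact 95% interval 0.000708 to 0.00324, counting error only). CEMIP2, a membrane protein described in mouse as a cell-surface hyaluronidase, was lower in SNU-449 by 2.83 on the log2 scale in the cytoplasm (log2 difference -2.83, SE 0.12, adjusted p = 3.78e-26) and less so in the nucleus (-1.19, SE 0.11, adjusted p = 8.7e-14). HYAL2, a hyaluronidase anchored at the cell surface, was also lower in SNU-449, with -0.77 (SE 0.12) in the cytoplasm and -1.05 (SE 0.12) in the nucleus. HMMR, known both for hyaluronan binding and as a spindle protein, was lower in SNU-449 by -1.18 (SE 0.18) and -0.94 (SE 0.16) in the same fractions. HYAL3, a hyaluronidase family member with little known activity of its own, was higher in SNU-449 cytoplasm (1.19, SE 0.14, adjusted p = 3.45e-10), and did not pass the test in the nucleus (0.20, SE 0.15, adjusted p = 0.226).

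HAS2, the synthase that makes long chains and dominates in many mesenchymal cells, lies on the minus strand of chromosome 8 at 121612116 to 121641390 (GRCh38, GENCODE release 29). It had 42 and 26 counts in the SNU-449 cytoplasm NC libraries and 0 in both HepG2 libraries, and it was at least 31.1-fold higher in SNU-449 if the limit of a count of 0 is set at 3 counts over the HepG2 pair. The corresponding nuclear libraries held 90 and 76 counts in SNU-449 and 0 in HepG2, at least 49.5-fold higher. Its antisense partner HAS2-AS1, which shares 4.8% of HAS2's exonic bases, had 0 to 4 counts in every library. HAS1, the remaining synthase, was at 0 to 13 counts throughout.

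With siPANAD, both synthases fell in SNU-449, in both fractions. HAS3 lies on the plus strand of chromosome 16 at 69105564 to 69118719 and is the most abundant of the 8 genes in this line. Its cytoplasmic level was 294 and 269 CPM with siPANAD, against 711 and 847 CPM with NC. Its nuclear level was 324 and 310 CPM with siPANAD, against 521 and 553 CPM with NC. The pairs do not overlap in either fraction. The log2 fold change was -1.42 in the cytoplasm (SE 0.095, adjusted p = 9.44e-15) and -0.74 in the nucleus (SE 0.093, adjusted p = 4.8e-08). In bulk RNA of a line, a lower level in each cell and fewer expressing cells cannot be told apart.

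HAS2 was at 0.667 and 0.836 CPM in siPANAD cytoplasm, against 3.03 and 1.87 CPM in NC cytoplasm, from 9 and 12 counts against 42 and 26. In the nucleus it was at 0.973 and 0.465 CPM with siPANAD, against 3.95 and 3.24 CPM with NC, from 23 and 11 counts against 90 and 76. Again no siPANAD library reached an NC library of its fraction. The log2 fold change was -1.64 (SE 0.38, adjusted p = 6.49e-04) in the cytoplasm and -2.28 (SE 0.30, adjusted p = 7.98e-08) in the nucleus. HAS2 was the rarer synthase by far, so its fold changes carry the wider errors.

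**Figure D2:**
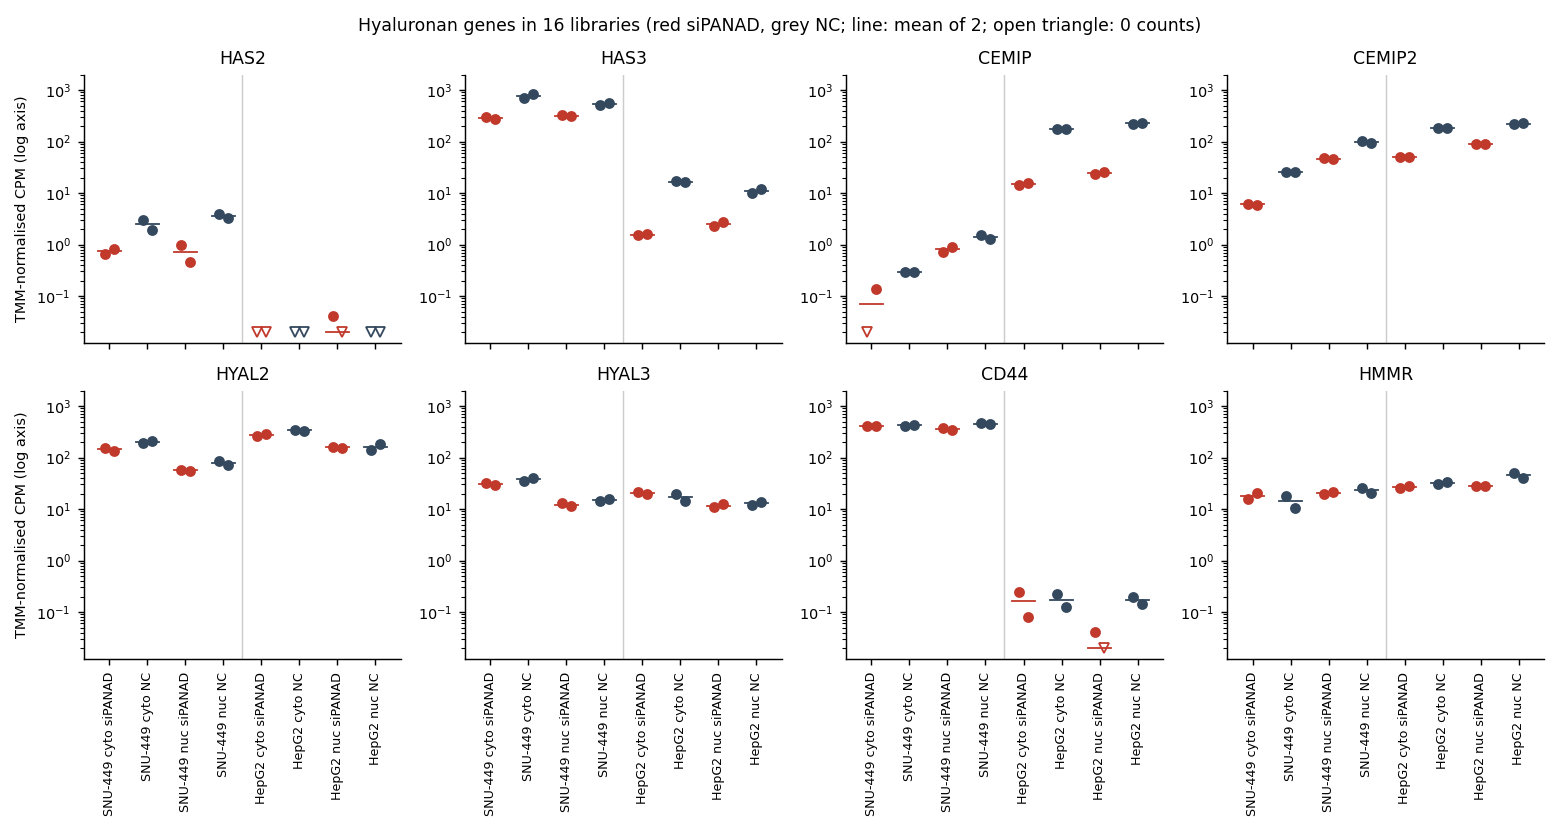
Level of each gene (TMM-normalised CPM, log axis) in each of the 16 libraries, red for siPANAD and grey for NC, with a line at the mean of 2 and open triangles for libraries with 0 counts. HAS2, HAS3 and CEMIP2 sit lower with siPANAD in both SNU-449 fractions, for HAS3 at 269 to 294 CPM against 711 to 847 CPM in the cytoplasm.

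Among the breakdown genes, CEMIP2 and HYAL2 fell in both SNU-449 fractions. CEMIP2 (chromosome 9, minus strand, 71683366 to 71816690) was at 6.16 and 5.85 CPM in siPANAD cytoplasm, against 25.8 and 25.1 CPM in NC cytoplasm. Its nuclear values were 47.3 and 45.9 CPM with siPANAD, against 102 and 93.7 CPM with NC. These are replicate pairs that nearly coincide and lie far apart between groups. The log2 fold change was -2.03 (SE 0.14, adjusted p = 1.58e-14) in the cytoplasm and -1.05 (SE 0.099, adjusted p = 8.54e-11) in the nucleus, the largest cytoplasmic change among the members past the threshold in SNU-449.

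HYAL2 (chromosome 3, minus strand, 50317790 to 50322906) changed far less. It was at 152 and 136 CPM in siPANAD cytoplasm, against 188 and 205 CPM in NC cytoplasm, and at 57.2 and 55.2 CPM in siPANAD nucleus, against 84.1 and 71.4 CPM in NC nucleus. The log2 fold change was -0.40 (SE 0.095, adjusted p = 7.98e-04) in the cytoplasm and -0.44 (SE 0.097, adjusted p = 3.03e-04) in the nucleus. Without SNU-449 cytoplasm siPANAD replicate 2, the cytoplasmic difference in HYAL2 was -0.31 with an adjusted p of 0.0593. HYAL2 shares 11.2% of its exonic bases with TUSC2 on the same strand, and reads there could have been assigned to either gene. TUSC2 was lower in the SNU-449 nucleus (log2 fold change -0.43, SE 0.095, adjusted p = 3.5e-04) and did not pass in the cytoplasm (-0.04, SE 0.088, adjusted p = 0.765).

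HYAL3 (chromosome 3, minus strand, 50292831 to 50299468) was at 32.1 and 29.9 CPM in siPANAD cytoplasm, against 35.4 and 40.7 CPM in NC cytoplasm. The nuclear values were 12.9 and 11.5 CPM with siPANAD, against 14.2 and 15.4 CPM with NC. The siPANAD libraries lay below the NC libraries each time by a small margin, and neither difference passed the test (log2 fold change -0.24, SE 0.12, adjusted p = 0.104; -0.25, SE 0.13, adjusted p = 0.103). HYAL3 shares 12.2% of its exonic bases with NAA80 on the same strand, which was higher in SNU-449 with siPANAD (0.61, SE 0.15, in the cytoplasm; 0.85, SE 0.12, in the nucleus). It shares 2.12% with IFRD2, also on the same strand and more highly counted, which was lower (-0.78, SE 0.097; -0.36, SE 0.099), so HYAL3's counts are uncertain.

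CEMIP (chromosome 15, plus strand, 80779343 to 80951776) was close to the detection limit in SNU-449 cytoplasm, with 0 and 2 counts with siPANAD and 4 and 4 with NC. The ratio of siPANAD to NC was 0.249 (exact 95% interval 0.0258 to 1.25, counting error only). It passed the filter on low counts through its nuclear libraries, which held 17 and 21 counts with siPANAD and 35 and 30 with NC. The nuclear log2 fold change was -0.78 (SE 0.35) with an adjusted p of 0.0649, and -0.77 with an adjusted p of 0.0486 when the 4 nuclear libraries were fitted alone. A CEMIP difference in SNU-449 was thus not detectable at this depth in the cytoplasm.

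Of the receptors, CD44 fell in the nucleus and HMMR passed the test in neither fraction. CD44 (chromosome 11, plus strand, 35138870 to 35232402) was at 405 and 408 CPM in siPANAD cytoplasm, against 417 and 435 CPM in NC cytoplasm, a log2 fold change of -0.02 (SE 0.088, adjusted p = 0.918). In the nucleus it was at 371 and 347 CPM with siPANAD, against 465 and 448 CPM with NC, a log2 fold change of -0.32 (SE 0.087, adjusted p = 0.0028). Without SNU-449 nucleus siPANAD replicate 2, the CD44 difference in the nucleus was -0.27 with an adjusted p of 0.058. Counts per gene do not separate the splice forms of CD44.

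HMMR (chromosome 5, plus strand, 163460203 to 163491945) was at 15.6 and 20.6 CPM in siPANAD cytoplasm, against 17.8 and 10.6 CPM in NC cytoplasm, so the groups overlapped (log2 fold change 0.40, SE 0.23, adjusted p = 0.2). In the nucleus it was at 19.5 and 21.7 CPM with siPANAD, against 26.2 and 20.7 CPM with NC (-0.16, SE 0.20, adjusted p = 0.541). The cytoplasmic HMMR value moved with the NC library used: it was 0.84 (adjusted p = 0.001) without SNU-449 cytoplasm NC replicate 1 and 0.08 (adjusted p = 0.803) without replicate 2. With no filter on low counts it was 0.39 (adjusted p = 0.0302).

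Counted together in SNU-449 cytoplasm, 4 of 8 hyaluronan genes were lower with siPANAD, 0 were higher and 4 did not pass the threshold, where 39.7% of the 17895 genes tested changed, 20.1% lower and 19.6% higher. At an unadjusted p under 0.05, HYAL3 was the only further member, and it was lower. In the nucleus, 5 of 8 were lower, 0 higher and 3 not past the threshold, where 46% of all genes changed, 23.9% lower and 22.1% higher. DESeq2 also called 0 members higher in either fraction. The median log2 fold change of the 8 genes was -0.91 in the cytoplasm and -0.59 in the nucleus, against 0.04 and -0.01 over all genes tested. These medians include CEMIP, whose cytoplasmic value (-1.86, SE 1.02) came from 0 to 4 counts per library. With CEMIP set aside, the middle gene was HYAL2 in both fractions, at -0.40 and -0.44. The summed level of the hepatocyte markers also differed between these groups: that of 8 markers was 25.4 and 28.0 CPM in siPANAD cytoplasm, against 71.3 and 60.4 CPM in NC cytoplasm, and 66.5 and 65.4 CPM in siPANAD nucleus, against 215 and 175 CPM in NC nucleus. Most of that sum was FGB, which was lower (-1.43, SE 0.12, and -1.61, SE 0.11), while SERPINA1 of the same list was higher (0.80, SE 0.27, and 1.12, SE 0.23) and TF did not pass. In the cytoplasm 5 of the 8 had any counts in either group, with ALB, APOB and TTR at 0. The part of these markers in the result was not tested.

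**Figure D3:**
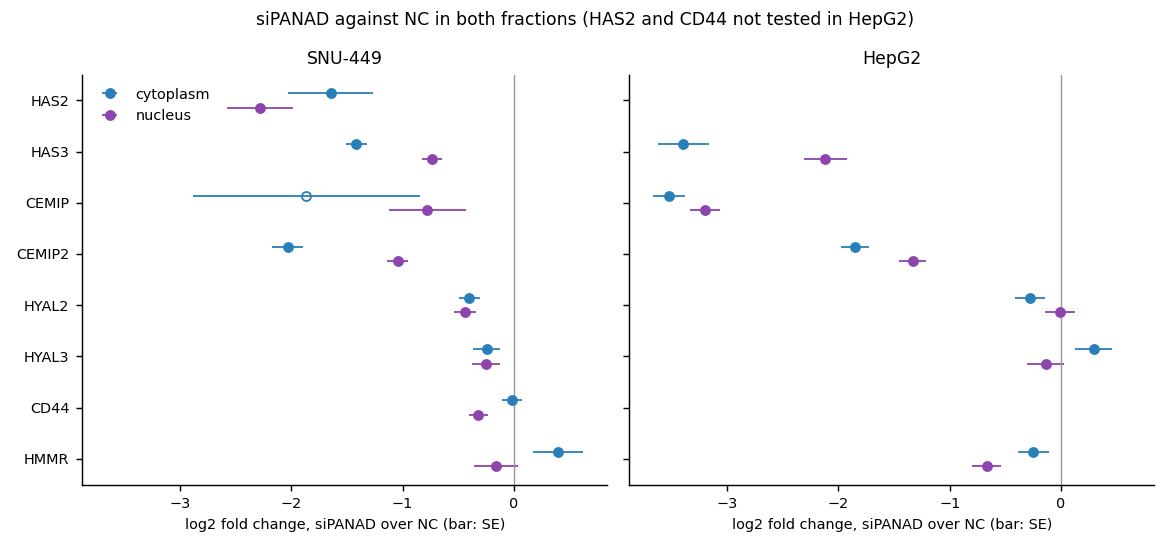
Log2 fold change of siPANAD over NC with its SE, cytoplasm and nucleus, in SNU-449 and in HepG2, for the members that passed the filter on low counts in that line; the open point is CEMIP in SNU-449 cytoplasm, from 0 to 4 counts. In SNU-449 the cytoplasmic point lies further below 0 than the nuclear one for HAS3 (-1.42 and -0.74) and CEMIP2 (-2.03 and -1.05).

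The nucleus to cytoplasm ratio was examined next, because the series asks about export of mRNA. Under NC in SNU-449, 2 of the 7 members at or above the cutoff in both fractions were higher in the nucleus than in the cytoplasm and 3 lower, where 79.8% of all genes differed, 43.5% higher and 36.2% lower, and the median gene stood at 0.22 on the log2 scale. CEMIP2 was the most nuclear of the well-counted members, with a log2 ratio of 1.93 (SE 0.11, adjusted p = 1.3e-18). CEMIP, which passed the filter through its nuclear libraries, had 35 and 30 counts in the nucleus, against 4 and 4 in the cytoplasm. HMMR was at 0.70 (SE 0.22, adjusted p = 0.00981). The HMMR ratio was 0.33 (adjusted p = 0.0898) without SNU-449 cytoplasm NC replicate 2 and 1.09, still past the threshold, without replicate 1. HYAL3 and HYAL2 were the most cytoplasmic, at -1.38 (SE 0.12) and -1.35 (SE 0.096), and HAS3 was at -0.55 (SE 0.093, adjusted p = 1.81e-06). HAS2 (0.53, SE 0.26, adjusted p = 0.0618) and CD44 (0.08, SE 0.087, adjusted p = 0.373) did not pass; HAS2 passed without SNU-449 cytoplasm NC replicate 1 at 0.88, without SNU-449 nucleus NC replicate 2 at 0.66, and with replicate number as a block at 0.54 (adjusted p = 0.0488). Without SNU-449 cytoplasm NC replicate 2 the HAS2 ratio was 0.18 (adjusted p = 0.618).

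HepG2 under NC showed the same side of 0 for each of its called members, with 3 of 6 tested genes higher in the nucleus and 2 lower, where 77.1% of all genes differed, 39.4% higher and 37.7% lower. CEMIP (0.37, SE 0.12, adjusted p = 0.00774), CEMIP2 (0.32, SE 0.12, adjusted p = 0.0174) and HMMR (0.49, SE 0.13, adjusted p = 0.00179) were higher in the nucleus. HYAL2 (-1.05, SE 0.13, adjusted p = 8.47e-08) and HAS3 (-0.56, SE 0.17, adjusted p = 0.00376) were lower. HYAL3 missed the threshold (-0.36, SE 0.17, adjusted p = 0.0502). It passed when any of 4 single libraries was left out, at -0.37 to -0.55, the largest without HepG2 cytoplasm NC replicate 2. Without HepG2 cytoplasm NC replicate 1 it was -0.13 (adjusted p = 0.509). HMMR lost its call without HepG2 nucleus NC replicate 1 (0.32, adjusted p = 0.0558), and CEMIP2 without HepG2 nucleus NC replicate 2 (0.30, adjusted p = 0.0502). Differences in these ratios between the lines were not tested.

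With siPANAD the ratio rose for 2 of 8 members in SNU-449, HAS3 and CEMIP2, and fell for 0, where 20.2% of all genes shifted, 9.69% up and 10.5% down. HAS3's log2 ratio was 0.13 with siPANAD, against -0.55 with NC, a shift of 0.68 (SE 0.13, adjusted p = 2.17e-04). CEMIP2's was 2.92 with siPANAD, against 1.93 with NC, a shift of 0.99 (SE 0.17, adjusted p = 6e-05). For both, the cytoplasmic RNA fell more than the nuclear RNA, and the nuclear RNA fell too. The shift did not pass for HYAL2 (-0.04, SE 0.14), HYAL3 (-0.01, SE 0.17), CD44 (-0.30, SE 0.12, adjusted p = 0.0791), HMMR (-0.56, SE 0.30, adjusted p = 0.238), HAS2 (-0.64, SE 0.52) or CEMIP (1.09, SE 1.08). Only in HMMR did a shift to the cytoplasm pass under an alternative, at -0.997 without SNU-449 cytoplasm NC replicate 1 and -0.59 with no filter on low counts; it was -0.23 without replicate 2. Because TMM scaling aligns the bulk of genes between libraries, these ratios are relative to that bulk and are not amounts per cell.

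**Figure D4:**
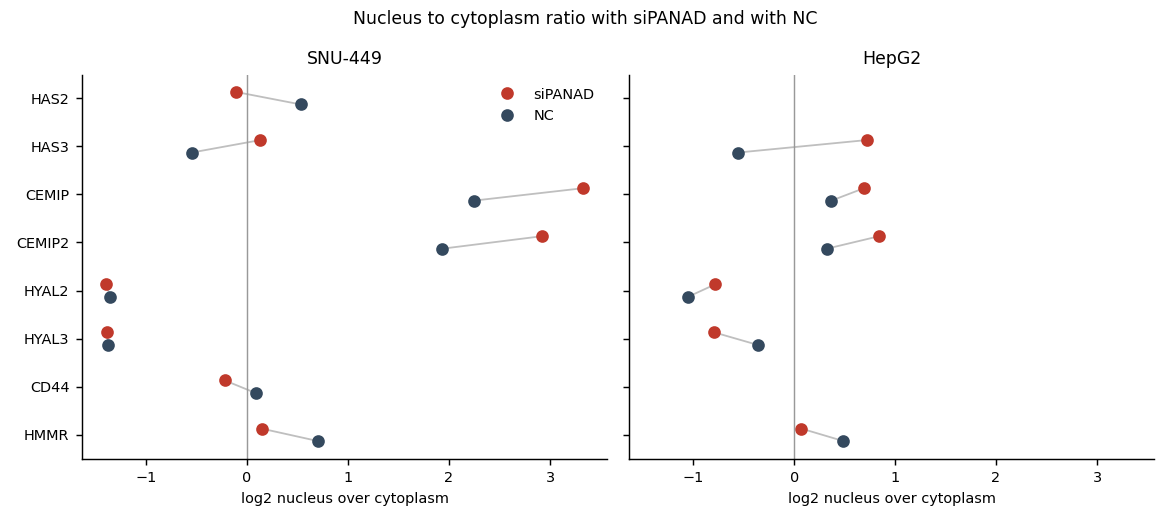
Fitted log2 ratio of nucleus over cytoplasm for each tested member, red with siPANAD and grey with NC, in SNU-449 and HepG2. In SNU-449 the points of HAS3 (0.13 and -0.55) and CEMIP2 (2.92 and 1.93) stand apart, and those of HYAL2 and HYAL3 nearly coincide.

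In HepG2 the values with siPANAD chose the members and are given without a test. CEMIP was at 14.7 and 15.7 CPM in siPANAD cytoplasm, against 177 and 175 CPM in NC cytoplasm. Its nuclear level was 23.7 and 25.1 CPM with siPANAD, against 217 and 234 CPM with NC. The fitted log2 fold changes were -3.52 and -3.20, and the siPANAD libraries lay far below the NC libraries in both fractions. MESD, which shares 2.94% of CEMIP's exonic bases on the opposite strand, had smaller fold changes in HepG2, -0.79 (SE 0.12) in the cytoplasm and -0.82 (SE 0.12) in the nucleus.

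HAS3 was at 1.53 and 1.58 CPM in HepG2 siPANAD cytoplasm, against 17.1 and 16.02 CPM in NC cytoplasm. The nuclear level was 2.31 and 2.78 CPM with siPANAD, against 10.1 and 12.1 CPM with NC. The log2 fold changes were -3.40 and -2.12, and the log2 nucleus to cytoplasm ratio was 0.72 with siPANAD, against -0.56 with NC. CHTF8, which shares 6.9% of HAS3's exonic bases on the opposite strand, had 0 to 25 counts in HepG2 libraries and 6 to 96 in SNU-449 libraries.

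CEMIP2 was at 49.9 and 49.3 CPM in HepG2 siPANAD cytoplasm, against 180 and 181 CPM in NC cytoplasm, and at 88.0 and 88.3 CPM in siPANAD nucleus, against 222 and 226 CPM in NC nucleus. The log2 fold changes were -1.85 and -1.33. The SNU-449 values were -2.03 and -1.05. The difference between the lines rests on the contrast that chose the members and was not tested.

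The other members were nearer to their controls in HepG2. HYAL2 was at 266 and 285 CPM in siPANAD cytoplasm, against 338 and 334 CPM in NC cytoplasm, and at 162 and 156 CPM in siPANAD nucleus, against 143 and 179 CPM in NC nucleus, where the groups overlapped. HYAL3 overlapped in both fractions, at 21.3 and 19.4 CPM in siPANAD cytoplasm, against 19.8 and 14.1 CPM in NC cytoplasm, and at 10.9 and 12.4 CPM in siPANAD nucleus, against 11.9 and 13.9 CPM in NC nucleus. HMMR was at 25.4 and 28.5 CPM in siPANAD cytoplasm, against 30.7 and 33.8 CPM in NC cytoplasm, and at 28.3 and 27.9 CPM in siPANAD nucleus, against 49.4 and 40.5 CPM in NC nucleus. HAS2 and CD44 stayed at 0 to 4 counts in every HepG2 library and were not tested there. In the same libraries the summed level of 5 mesenchymal markers was 1678 and 1704 CPM in siPANAD cytoplasm, against 3966 and 3339 CPM in NC cytoplasm, and 2749 and 2852 CPM in siPANAD nucleus, against 5904 and 6219 CPM in NC nucleus. That of 8 hepatocyte markers was 42546 and 40883 CPM in siPANAD cytoplasm, against 32602 and 29060 CPM in NC cytoplasm, and on the other side in the nucleus, at 17375 and 17886 CPM with siPANAD, against 24489 and 23108 CPM with NC. The hepatocyte markers went different ways. In the cytoplasm APOB (-1.24, SE 0.16), FGB and AFP were lower, and APOA1 (0.75, SE 0.16) and SERPINA1 (1.05, SE 0.17) higher, while ALB, TTR and TF did not pass. In the nucleus ALB, APOB, AFP, TTR and FGB were lower and APOA1 higher (1.18, SE 0.17), while SERPINA1 and TF did not pass. Of the 5 mesenchymal markers, FN1 was lower in the cytoplasm (-1.18, SE 0.15) and in the nucleus (-1.13, SE 0.15), as were ZEB1 and CDH2. SPARC did not pass in the cytoplasm (0.24, SE 0.13) and was higher in the nucleus (0.34, SE 0.13, adjusted p = 0.0357). VIM was not tested in HepG2. The part of either marker set in the values of the hyaluronan genes was not tested.

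The upstream sequences of HAS3 and CEMIP are shown because these genes had the deepest HepG2 differences and opposite levels in the lines. Each is the 250 bases before the RefSeq transcript start (GRCh38.p14), 5′ to 3′ on the gene's strand. HAS3's window is chr16:69107290-69107539 and lies inside the GENCODE gene, downstream of its outermost start, and CEMIP's is chr15:80779120-80779369. Capitals mark matches, on either strand, to the E-box CACGTG, the SP1 motif GGGCGG or the TATA box TATAAA; an SP1 match on the other strand reads CCGCCC.
HAS3: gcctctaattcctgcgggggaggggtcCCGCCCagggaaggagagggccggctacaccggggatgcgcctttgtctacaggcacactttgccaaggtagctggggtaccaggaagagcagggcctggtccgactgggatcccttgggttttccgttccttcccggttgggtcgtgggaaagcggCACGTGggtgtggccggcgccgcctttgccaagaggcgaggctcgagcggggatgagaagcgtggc
CEMIP: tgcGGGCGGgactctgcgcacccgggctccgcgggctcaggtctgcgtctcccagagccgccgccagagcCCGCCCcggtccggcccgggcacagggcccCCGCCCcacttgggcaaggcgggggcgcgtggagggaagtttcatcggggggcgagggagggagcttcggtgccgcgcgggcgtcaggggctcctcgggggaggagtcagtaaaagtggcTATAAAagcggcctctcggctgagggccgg

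HAS3's window held 1 E-box, 66 bases before the start, and 1 SP1 match. CEMIP's held 1 TATA box, 30 bases before the start, and 3 SP1 matches. Over all 35116 RefSeq windows of the same length, 6.34% held the E-box, 10.7% the TATA box and 42.6% the SP1 motif. Of the 7 members with a RefSeq window, CEMIP alone held the TATA box and HAS3 alone the E-box. The AP-1 motif TGANTCA (in 6.57% of all windows), the CRE TGACGTCA (1.65%) and the STAT motif TTCNNNGAA (6.57%) had no match in the windows of those 7 members. The TEAD motif CATTCC, found in 11.9% of all windows, was in those of HYAL2, HYAL3 and HMMR. The matches in the windows of HAS3 and CEMIP do not overlap each other. A match is a description of letters, not of binding, and its absence says only that the letters are not in this window.

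Of 59 further genes of hyaluronan supply, binding and signalling, 45 were tested in SNU-449. In SNU-449 cytoplasm 6 were higher and 16 lower with siPANAD, and in the nucleus 6 and 20, where 19.6% and 20.1% of all genes (cytoplasm) and 22.1% and 23.9% (nucleus) were so. HepG2 gave 8 higher and 16 lower of 43 in the cytoplasm and 8 and 19 in the nucleus, where 47.9% of the 17499 genes tested (cytoplasm; 23.7% higher, 24.2% lower) and 45.6% (nucleus; 22% higher, 23.6% lower) changed. Their median log2 fold changes lay between -0.17 and -0.25 in the 4 comparisons, against 0.04 to -0.03 over all genes. The nucleus to cytoplasm ratio shifted in 6 up and 4 down in SNU-449, and in 2 up and 1 down in HepG2, where 9.89% of all genes shifted, 4.91% up and 4.98% down. The siPANAD effect differed between SNU-449 and HepG2 for 8 genes higher and 6 lower of 50 in the cytoplasm, where 18.2% of all genes did (9.17% higher, 8.98% lower). In the nucleus it was 10 and 7, where 20.9% did (11.3% higher, 9.61% lower).

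Of 11 enzymes on the list of UDP-sugar supply, 2 were higher and 4 lower in SNU-449 cytoplasm, where 19.6% and 20.1% of all genes were so. GNPNAT1, an acetyltransferase of UDP-N-acetylglucosamine synthesis, was at 69.3 and 82.2 CPM with siPANAD, against 29.1 and 31.9 CPM with NC (log2 fold change 1.36, SE 0.12, adjusted p = 6.44e-12). The nuclear difference did not pass (-0.04, SE 0.14, adjusted p = 0.855), and the ratio shift was -1.40 (SE 0.18, adjusted p = 7.84e-07). PGM3, the mutase that follows it, was lower by the same test (-0.80, SE 0.16, adjusted p = 1e-04). In HepG2 nucleus UXS1 (-1.22, SE 0.13, adjusted p = 1.75e-08), which uses up UDP-glucuronic acid, and UGDH (-1.07, SE 0.12, adjusted p = 1.31e-07), which makes it, were among 5 of 11 lower. In that fraction 23.6% of all genes were lower.

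The remaining synthases, hyaluronidases and exoglycosidases had 1 of 5 tested genes higher in each SNU-449 fraction, HEXA, a subunit of lysosomal hexosaminidase (0.31, SE 0.11, adjusted p = 0.0219, in the cytoplasm). In those fractions 19.6% (cytoplasm) and 22.1% (nucleus) of all genes were higher. HYAL1, the circulating and lysosomal hyaluronidase, was expressed in HepG2 and rose there with siPANAD. It was at 380 and 376 CPM in siPANAD cytoplasm, against 225 and 178 CPM in NC cytoplasm (0.92, SE 0.13, adjusted p = 2.83e-06), and it also rose in the nucleus (0.53, SE 0.13, adjusted p = 0.00201). In SNU-449 HYAL1 had 0 to 30 counts.

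Hyaluronan-binding matrix and plasma proteins included 2 of 7 tested genes lower in SNU-449 cytoplasm and 4 of 8 lower with 3 higher in HepG2 cytoplasm. Of all genes, 20.1% were lower in SNU-449 cytoplasm, and 24.2% lower and 23.7% higher in HepG2 cytoplasm. VCAN, the versican core protein, was lower in both lines. It was at 32.7 and 33.6 CPM in SNU-449 siPANAD cytoplasm, against 66.0 and 46.6 CPM in NC cytoplasm (-0.72, SE 0.13, adjusted p = 5.78e-05), and at 1.37 and 1.11 CPM in HepG2 siPANAD cytoplasm, against 10.5 and 11.1 CPM in NC cytoplasm (-3.11, SE 0.25, adjusted p = 1.39e-10). ITIH1, a heavy chain that becomes bound to hyaluronan, rose in HepG2, at 11.1 and 9.33 CPM in siPANAD cytoplasm, against 0.659 and 0.534 CPM in NC cytoplasm (4.13, SE 0.28, adjusted p = 8.7e-12).

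Of 4 other surface receptors tested in each line, SNU-449 cytoplasm had 1 lower and 0 higher, where 20.1% and 19.6% of all genes were so. SNU-449 nucleus and both HepG2 fractions each had 1 lower and 1 higher, where 23.6% to 24.2% of all genes were lower and 22% to 23.7% higher. The higher receptor was TLR2, by 0.97 (SE 0.35, adjusted p = 0.0217) in SNU-449 nucleus and 1.72 (SE 0.22, adjusted p = 7.77e-07) in HepG2 nucleus. In HepG2 cytoplasm TLR2 rose by 2.39 (SE 0.79, adjusted p = 0.0147), from 3 counts with NC to 11. LAYN fell in SNU-449 cytoplasm (-0.47, SE 0.12, adjusted p = 0.00116). LYVE1, known from lymphatic and liver sinusoidal endothelium, fell in HepG2 cytoplasm, at 0.483 and 1.27 CPM with siPANAD, against 3.002 and 2.79 CPM with NC (-1.70, SE 0.36, adjusted p = 3.03e-04). Endothelial markers moved in the same HepG2 libraries and in both directions. PECAM1 was lower (-1.15, SE 0.22, in the cytoplasm; -2.13, SE 0.21, in the nucleus) and VWF higher (0.77, SE 0.26; 0.99, SE 0.24), while KDR had 0 counts and CDH5 0 to 2. The summed level of the 4 was 7.65 and 6.96 CPM in siPANAD cytoplasm, against 9.74 and 10.4 CPM in NC cytoplasm, and its part in the LYVE1 result was not tested.

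CD44 linkers, ligands and sheddases had 7 of 10 genes lower and 1 higher in SNU-449 cytoplasm, where 20.1% and 19.6% of all genes were so. SNU-449 nucleus gave 5 of 10 lower and 0 higher, where 23.9% and 22.1% of all genes were so. Of 8 tested in HepG2, 4 were lower in the cytoplasm and 5 in the nucleus, with 0 higher in either. In those fractions 24.2% and 23.6% of all genes were lower. ADAM17, a protease that can shed CD44 in cells, was at 3.19 and 3.41 CPM in SNU-449 siPANAD cytoplasm, against 10.9 and 10.6 CPM in NC cytoplasm (-1.65, SE 0.19, adjusted p = 6.65e-09). It did not pass in the SNU-449 nucleus (-0.12, SE 0.13, adjusted p = 0.461), and its nucleus to cytoplasm ratio rose by 1.53 (SE 0.23, adjusted p = 6.93e-06). In HepG2 ADAM17 was lower in the cytoplasm (-2.71, SE 0.16, adjusted p = 3.67e-13) and also in the nucleus (-1.10, SE 0.14, adjusted p = 3.21e-07). Its ratio shift there was 1.61 (SE 0.20, adjusted p = 2.34e-05). MMP14, a membrane metalloproteinase that also cuts CD44, fell in SNU-449 cytoplasm (-1.60, SE 0.13, adjusted p = 1.33e-12). Its ratio shift in SNU-449 was 1.08 (SE 0.17, adjusted p = 1.56e-05).

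ESRP2, a splicing factor that favours epithelial CD44 forms, rose in SNU-449, at 7.34 and 8.70 CPM in siPANAD cytoplasm, against 3.90 and 4.69 CPM in NC cytoplasm (0.95, SE 0.19, adjusted p = 6.86e-05), and fell in HepG2 cytoplasm (-0.37, SE 0.13, adjusted p = 0.0218). Among the 7 spindle partners of HMMR, 6 were lower and 1 higher in SNU-449 nucleus, where 23.9% and 22.1% of all genes were so. In SNU-449 cytoplasm it was 2 lower and 1 higher, in HepG2 cytoplasm 1 and 2, and in HepG2 nucleus 2 and 1. Over all genes, 20.1% to 24.2% were lower and 19.6% to 23.7% higher in these comparisons. PLK1, a mitotic kinase, was lower in SNU-449 nucleus (-0.44, SE 0.091, adjusted p = 1.59e-04) and BRCA1, a DNA repair factor, higher (0.98, SE 0.11, adjusted p = 2.11e-09). In HepG2 cytoplasm PLK1 was also lower (-0.86, SE 0.13, adjusted p = 7.73e-06).

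**Figure D5:**
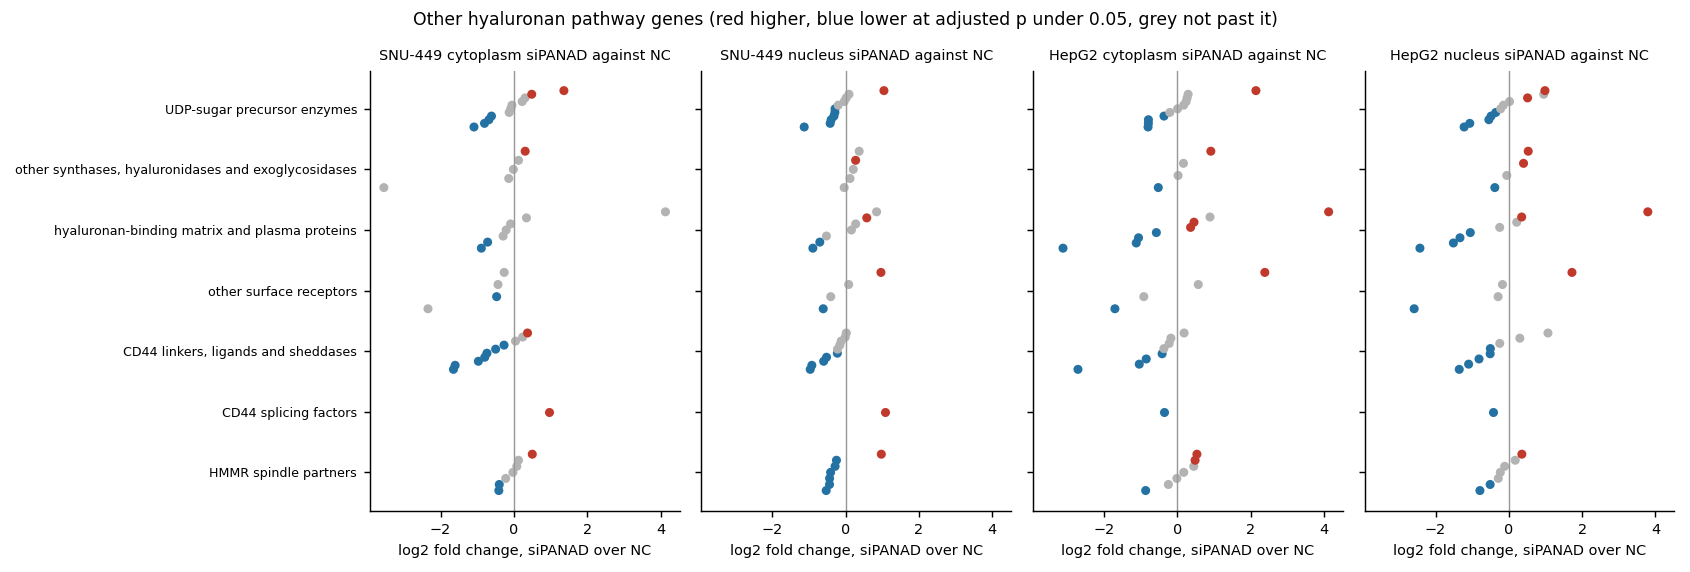
Log2 fold change of siPANAD over NC for the tested genes of 7 lists of hyaluronan-related genes, 1 point per gene, in SNU-449 and HepG2 cytoplasm and nucleus; red is higher and blue lower at an adjusted p under 0.05, and grey did not pass. Points to the left outnumber those to the right among CD44 linkers, ligands and sheddases, and the grey points beyond -3 and 4 in SNU-449 cytoplasm are HAS1 (-3.55) and ITIH2 (4.13), with SE of 2.31 and 2.195.

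The genes most like each member across the 16 libraries, after the mean of each line was removed, were taken by Pearson's r of log2 CPM. HAS3 was most like HYOU1 (0.97), LRP5 and INHBB, CEMIP most like OSMR (0.98), ATP2B1 and LAMC1, and CEMIP2 most like CLSTN1 (0.99), DEXI and ADM. HYAL2 was most like TIGD5, DUSP9 and GTPBP6 (each 0.99), HYAL3 most like RAB11B (0.98), MPV17L2 and DCPS, and HAS2 most like ECEL1P2 (0.96), TOX2 and SERTAD4. The receptors had weaker partners, ZNF280A (0.90), ARHGAP5-AS1 and SIRPA for CD44 and MBNL3 (0.89), ENSG00000288899 and ZNF800 for HMMR. These libraries share fraction and siRNA, both of which enter r, and values for HAS2, CEMIP and CD44 rest partly on a line with few counts.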

How the data were processed

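Cytoplasmic and nuclear RNA of SNU-449 and HepG2 was sequenced in 16 directional libraries, per the labels' protocols. The authors deposited raw counts per gene, 1 table per line, and the counts were used as deposited. Trim Galore 0.6.4, HISAT2 2.2.1 and the hg38 genome are named per the submitters' processing notes. For the counting program, its annotation and its use of strand the sources used here give nothing, so overlapping and antisense genes may share reads. Symbols were matched for 61444 of 67938 identifiers, and 1 gene with a broken entry was left out.

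Each line was fitted with its 8 libraries and 1 mean per group, and both lines together with 16, in edgeR 4.0.16 under R 4.3.3 (filterByExpr with a minimum count of 10, TMM scaling, robust glmQLFit, two-sided glmQLFTest, Benjamini-Hochberg adjusted p under 0.05 over all genes tested). The filter kept 17895 genes in SNU-449, 17499 in HepG2 and 20459 in both. All 8 hyaluronan genes passed in SNU-449 and 6 in HepG2. Counts of members between NC groups cover those at 0.567 CPM (10 counts at the median library size) or more in both groups, a restriction chosen after seeing the data. SE is the log2 fold change over the root of F. The scripts were tested on simulated data. The ratio shift is the nuclear minus the cytoplasmic log2 fold change. Exon lengths, positions and overlaps came from GENCODE release 29 and promoter windows from RefSeq GRCh38.p14.

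A count of 0 allows up to 3 counts, or 0.0989 to 0.185 CPM in a library. Intervals and limits describe counting error alone, because PCR duplicates could not be told from separate molecules. Replicates differed by more than counting noise (chi-square per degree of freedom 4.48 to 33, highest in HepG2 cytoplasm NC). The members and the gene lists were chosen with earlier results of these data known. Genes named from the lists were up to 2 per list and direction with the largest change past the threshold, named in part. Levels and exceptions of other genes are descriptive. Alternatives were RLE scaling, DESeq2 1.42.0, no filter, each library left out, replicate number as a block and each fraction alone.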

Additional observations from a re-analysis of the deposited data

Results flagged for a closer look

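HAS3 and CEMIP2 stood out because their siPANAD effects differed between the fractions of SNU-449 by a test of the difference itself. The nuclear minus cytoplasmic effect was 0.68 for HAS3 (SE 0.13, adjusted p = 2.17e-04) and 0.99 for CEMIP2 (SE 0.17, adjusted p = 6e-05). All 12 alternatives kept the call, with 0.56 to 0.79 for HAS3 and 0.93 to 1.04 for CEMIP2.

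Opposite directions in the lines were searched for in the wider pathway only. The 8 hyaluronan genes were left out, because their difference contains the HepG2 effect behind their choice. Some genes of the wider pathway changed in opposite directions in the lines. For these the difference between the lines (SNU-449 effect minus HepG2 effect) passed the test. In the cytoplasm it was 0.81 for GFPT1, -3.27 for GFPT2, both entry enzymes of UDP-N-acetylglucosamine synthesis, -1.39 for AMBP, the precursor of bikunin, 0.74 for RDX, a linker of CD44 to actin, and 1.29 for ESRP2. In the nucleus it was -0.92 for NAGK, a kinase that salvages N-acetylglucosamine, 1.89 for BCAN, the brevican core protein, and 1.5 for ESRP2. The effects behind them were 0.49 in SNU-449 and -0.36 in HepG2 for GFPT1, -1.09 and 2.15 for GFPT2, -0.89 and 0.46 for AMBP, 0.37 and -0.41 for RDX, and 0.95 and -0.37 for ESRP2. In the nucleus they were -0.39 in SNU-449 and 0.51 in HepG2 for NAGK, 0.58 and -1.33 for BCAN, and 1.08 and -0.43 for ESRP2. Adjusted p-values of these differences (edgeR) ran from 2.8e-09 for ESRP2 in the nucleus to 0.0018 for RDX in the cytoplasm. GFPT2 had only 12 counts in both HepG2 cytoplasm NC libraries together.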

How the results depend on the processing

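Of the SNU-449 calls, HAS2, HAS3 and CEMIP2 kept direction and threshold in both fractions under all 13 alternatives, with cytoplasmic values of -1.94 to -1.24, -1.52 to -1.28 and -2.06 to -1.98. Members higher in SNU-449 cytoplasm numbered 1 (HMMR) with no filter and 0 to 1 over the libraries left out. Members with a lower SNU-449 ratio likewise numbered 1 with no filter and 0 to 1 over the libraries left out. Genes called for the ratio shift ran from 2392 to 3650 in SNU-449 and from 841 to 2346 in HepG2 when single libraries were left out, against 3614 and 1730. No result reversed. Of results that are not main counts, 112 lost their call and 12 gained one. A further 47 moved, as counts over lists by over 1.5 times or as untested member values by more than their replicate spread. The cause was not tested.

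The labels do not say that a replicate number marks a shared culture or day, and the differences between replicates of siPANAD and NC correlated across genes at -0.117 and 0.249 (SNU-449 cytoplasm and nucleus) and 0.0159 and -0.0242 (HepG2). With the replicate block, 6988 genes were called in SNU-449 cytoplasm against 7106, 8073 in the nucleus against 8232, 8193 in HepG2 cytoplasm against 8390 and 7684 in the nucleus against 7981. The block changed 1 member call, HAS2's NC ratio in SNU-449. Depth limits CEMIP in SNU-449 and HAS2 and CD44 in HepG2, and with 2 libraries a group the p-values rest on spread pooled over groups.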
